A study of Mus musculus with 35 samples.

Results

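The genes described here are the writers, erasers and protectors of DNA methylation, chosen by name as 10 rows of a table of 24480 genes. They are the DNA methyltransferases Dnmt1, Dnmt3a and Dnmt3b, the cofactor Dnmt3l, the DNMT1 partner Uhrf1, the dioxygenases Tet1, Tet2 and Tet3, and the protectors Dppa3 and Zfp57. RNA was sequenced from 35 samples of wild-type C57BL/6NRj mouse embryos in 4 groups. All embryos came from superovulated juvenile females and had been injected into the cytoplasm. The groups were 10 water-injected zygotes, 10 zygotes injected with Kdm5b-yfp mRNA, 9 water-injected 2-cell (2C) samples and 6 Kdm5b 2C samples. The injected mRNA, at about 1150 ng/µl, codes for YFP joined to KDM5B, an enzyme that demethylates H3K4. The control was water rather than another mRNA, so an effect of mRNA as such cannot be told apart from one of KDM5B. Zygotes were collected singly 17 h after ovulation, and 2C embryos 5.5 to 8 h after division. The zygotes were injected as zygotes and the 2C embryos early in the 2C stage, in both blastomeres, each some hours before collection. The 2 stages were thus separate injections, not 1 injection followed over time. Embryos with no or very weak YFP after mRNA injection were left out, a selection that water-injected embryos could not undergo. Of the water 2C samples 6 were single intact embryos, 1 held blastomeres of 2 embryos and 2 held blastomeres of 3 embryos. Of the Kdm5b 2C samples 5 were single intact embryos and 1 held blastomeres of 3 embryos. Per the study's methods, the pooled blastomeres came from embryos of which only 1 cell had survived the injection. Pooling therefore cannot be told apart from the loss of a sister cell. The 2C embryos developed from zygotes that had been frozen and thawed, and the 2 stages were made into libraries on separate days, so stage cannot be told apart from freezing or library day.

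After fertilisation, the mouse genome loses most of the DNA methylation that it inherited from the gametes. TET3, supplied by the oocyte, oxidises 5-methylcytosine, and the remaining methylation is diluted as DNA replicates. DNMT1, brought to half-methylated DNA by UHRF1, copies methylation onto the new strand, while DNMT3A and DNMT3B, helped by DNMT3L, methylate unmethylated sites. DPPA3 (STELLA) guards the maternal genome against oxidation and keeps UHRF1 out of the nucleus in oocytes. ZFP57 binds methylated imprints and recruits the corepressor TRIM28. KDM5B itself removes methyl groups from lysine 4 of histone H3, a mark that repels the de novo DNA methyltransferases.

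Between 8705584 and 17797581 fragments per sample were counted on genes. The Kdm5b row held 2.30% to 10.4% of the counts in injected zygotes and at most 0.00137% in water zygotes. It held 8.27% to 15.8% in injected 2C samples and at most 0.0189% in water 2C samples, so every sample matched its label for injection. The summed level of 8 oocyte markers was 4050.0 to 5583 CPM in zygotes and 2057 to 3755 CPM in 2C samples, where CPM is the normalised count scaled to library size. That of 7 markers of the 2-cell stage was 8.47 to 38.1 CPM in zygotes and 117 to 545 CPM in 2C samples. Of 9 markers of cumulus cells, which surround the egg, the sum was 11.4 to 37.7 CPM over all samples. Among them Amh was at 0 in all 2C samples, as were Ptx3 in the water group and Inhba in the Kdm5b group. The 4 sperm markers summed to between 0 and 13.5 CPM. The part of such cells in the values below was not tested. These are values of whole embryos or blastomeres, whose number of embryo cells the design sets. For other cells, such as cumulus cells, fewer cells and less RNA per cell cannot be told apart. No spike-in was used, so each level is a share of the sample and not an amount per embryo.

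The 10 genes were all detected in all 35 samples, but their levels spanned more than 3 orders of magnitude. Levels of different genes were compared per length, as TPM (the length-scaled share of all transcripts) computed without the Kdm5b row. In water zygotes the highest were Dppa3, with a median of 4722 TPM, and Zfp57, with 3931 TPM. They ranked 7 and 10 among 15332 genes with a median above 0. Uhrf1 (895 TPM), Tet3 (874 TPM) and Dnmt1 (871 TPM) followed within a narrow range. Dnmt3l (107 TPM) and Dnmt3a (103 TPM) were lower, and Dnmt3b (19.8 TPM), Tet2 (4.95 TPM) and Tet1 (0.684 TPM) came last.

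Several neighbours in this order did not differ beyond their spread. Uhrf1 was above Tet3 in 5 of 10 water zygotes, Tet3 above Dnmt1 in 6 of 10 and Dnmt3l above Dnmt3a in 6 of 10. Dppa3 was above Zfp57 in 9 of 10. The other 5 steps of the order held in 10 of 10 water zygotes. In Kdm5b zygotes the order of the medians was the same, and the same 3 neighbour pairs changed places between samples. In both 2C groups Tet3 and Uhrf1 exchanged places in the order of the medians, and the other genes kept theirs. Tet3 was above Uhrf1 in only 6 of 9 water 2C samples, and in 6 of 6 Kdm5b 2C samples. Dppa3 was above Zfp57 in 9 of 9 and in 4 of 6. Dnmt1 stayed in place 5 but farther below its neighbours. In water 2C samples its median was 149.7 TPM, below Tet3 (614 TPM) and Uhrf1 (488 TPM) though above Dnmt3l (110.5 TPM) in 9 of 9 samples. In Kdm5b 2C samples Dnmt1 had nearly the same median, 149.9 TPM, against 409 TPM for Uhrf1 and 117 TPM for Dnmt3l. There it was above Dnmt3l in 5 of 6 samples. Tet2 remained above Tet1 in 8 of 9 water 2C samples and in 5 of 6 Kdm5b 2C samples.

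**Figure D1:**
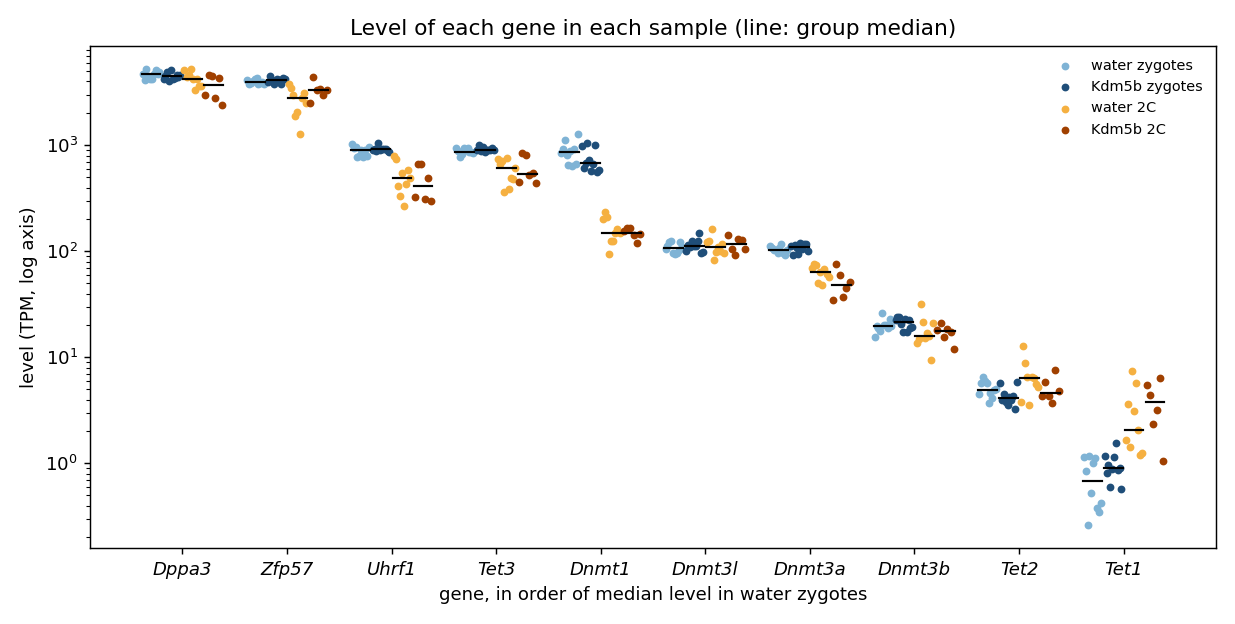
Level of each of the 10 genes in each sample, in TPM on a log axis, with 1 point per sample, 4 colours for the groups and a black line at each group's median. Dnmt1 dropped from medians of 871 and 677 TPM in the zygote groups to 149.7 and 149.9 TPM in the 2C groups, while Tet1 was the gene with the lowest median in each group.

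The first comparison asked how these transcripts differed between water-injected zygotes and water-injected 2C samples. Of the 10 genes, 6 passed an adjusted p of 0.05 in edgeR's quasi-likelihood test, against 52.2% of the 11968 genes tested. With an absolute log2 fold change over 1 as well, 2 passed, Dnmt1 (lower) and Tet1 (higher), against 22.2% of all genes. Both shares were near the background, so the group as a whole did not stand apart in how often it changed. The median log2 fold change was -0.29 over the 10 genes and 0.02 over all genes tested. In the Kdm5b-injected embryos, which share no sample with the water groups, 5 of the 10 genes passed the adjusted p against 58.7% of 12390 genes. There 2 passed both thresholds, Dnmt1 and Tet1 again, against 26.5%. Without the samples that held blastomeres of several embryos, the number past both thresholds was 2 in the water groups and 3 in the Kdm5b groups. Of all genes these fits called 2589 of 12465 and 3206 of 12594.

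Dnmt1, the maintenance methyltransferase, fell most. It lies on chromosome 9 of GRCm38 from 20907206 to 20959888, on the minus strand, and fragments were counted over its 41 separate exon blocks. Its normalised count was 1284, 1799.7 and 2701 CPM in the lowest, median and highest water zygote. In water 2C samples the same 3 values were 204, 341 and 492 CPM. The highest 2C sample was far below the lowest zygote, so the groups did not overlap. The means were 1814 ± 453 CPM (SD, n = 10) and 345 ± 96.1 CPM (SD, n = 9), a log2 fold change of -2.37 (standard error, SE, 0.16, edgeR adjusted p = 1.74e-11). In Kdm5b embryos the lowest, median and highest values were 1173, 1383 and 2096 CPM in zygotes and 254, 335 and 366 CPM in 2C samples. The groups were again apart, with a log2 fold change of -2.21 (SE 0.14, edgeR adjusted p = 6.58e-12). Dnmt1 stayed past both thresholds in every alternative of both comparisons, with log2 fold changes between -2.46 and -2.15.

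The RefSeq annotation gives Dnmt1 3 transcription starts, and the gene count sums the transcripts of all of them. Oocytes are known to use an upstream first exon of Dnmt1 and other cells a downstream one. The windows around starts 1 and 3, 250 bases before to 50 bases after each, are shown because the same gene total may hold transcripts of either. They are taken from RefSeq (GRCm38.p6), written 5′ to 3′ in the direction of transcription, and each CpG, the site that these enzymes methylate and oxidise, is in capitals.
Dnmt1, start 1 (chr9:20959839-20960138, minus strand): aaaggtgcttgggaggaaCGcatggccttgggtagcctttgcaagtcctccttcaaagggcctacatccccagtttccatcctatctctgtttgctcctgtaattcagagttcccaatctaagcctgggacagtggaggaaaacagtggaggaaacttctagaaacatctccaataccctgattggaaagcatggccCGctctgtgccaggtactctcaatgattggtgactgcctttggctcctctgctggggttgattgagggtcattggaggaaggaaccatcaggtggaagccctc
Dnmt1, start 3 (chr9:20952574-20952873, minus strand): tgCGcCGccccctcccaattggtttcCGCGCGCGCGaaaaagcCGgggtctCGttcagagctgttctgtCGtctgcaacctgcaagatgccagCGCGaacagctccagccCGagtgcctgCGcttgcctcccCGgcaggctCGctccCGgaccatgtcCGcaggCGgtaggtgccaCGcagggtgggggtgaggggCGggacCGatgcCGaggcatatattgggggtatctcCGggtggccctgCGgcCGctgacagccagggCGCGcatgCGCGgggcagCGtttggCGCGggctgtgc
The window of start 1 holds 2 CpGs and that of start 3, which lies 7265 bases further along the gene, holds 33. Of all 32851 promoter windows of this length in the table, 14.1% had fewer CpGs than that of start 1 and 91.4% had fewer than that of start 3. The letters CCAAT, on either strand, occurred 5 times in the window of start 1 and 3 times in that of start 3, and in 37.4% of all windows. GGGCGG, the GC box, occurred 0 and 2 times, and in 35.7% of all windows. The counts do not separate the starts, so which of them lost transcripts was not tested.

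Uhrf1, which recruits DNMT1 to DNA, fell less. It lies on chromosome 17 from 56303337 to 56323486, on the plus strand. The lowest, median and highest values were 919, 1078 and 1225 CPM in water zygotes and 321, 641 and 947 CPM in water 2C samples. Of the 9 water 2C samples, 8 were below the lowest zygote. This was a log2 fold change of -0.71 (SE 0.14, edgeR adjusted p = 0.000185). With Kdm5b the values were 1061.5, 1081 and 1223 CPM in zygotes and 384, 509 and 855 CPM in 2C samples, so that these groups did not overlap. Their log2 fold change was -0.90 (SE 0.14, edgeR adjusted p = 7.85e-06). As Dnmt1 fell further than Uhrf1, the ratio of Uhrf1 to Dnmt1 in TPM within a sample went from a median of 1.01 in water zygotes (range 0.753 to 1.24) to 3.26 in water 2C samples (range 1.95 to 4.39). In Kdm5b embryos it went from 1.35 (range 0.921 to 1.59) to 3.09 (range 2.06 to 4.10). The ranges of zygotes and 2C samples did not overlap for either injection.

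Dnmt3a, a de novo methyltransferase, was also lower in 2C samples. It lies on chromosome 12 from 3806980 to 3914443, on the plus strand. The lowest, median and highest values were 295, 339.8 and 377 CPM in water zygotes against 157, 213 and 250.2 CPM in water 2C samples. These groups did not overlap, and the log2 fold change was -0.64 (SE 0.09, edgeR adjusted p = 7.52e-07). With Kdm5b they were 298, 353 and 391 CPM in zygotes against 112, 171 and 267 CPM in 2C samples, again without overlap. Their log2 fold change was -0.98 (SE 0.14, edgeR adjusted p = 1.12e-06), just short of the fold threshold. It passed that threshold in 7 of 24 alternatives, among them the fit of single intact embryos only (-1.01).

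Dnmt3b and Dnmt3l did not pass the test at either injection. Dnmt3b, the other de novo enzyme, lies on chromosome 2 from 153649449 to 153687730, on the plus strand. Its lowest, median and highest values were 22.3, 27.8 and 36.3 CPM in water zygotes and 14.1, 23.7 and 46.7 CPM in water 2C samples, so that the 2C range enclosed the zygote range. The log2 fold change was -0.08, with a 95% interval of -0.41 to 0.25 from the standard error. In Kdm5b embryos it was -0.20 (interval -0.45 to 0.05). Dnmt3l, which has no catalytic activity and stimulates the de novo enzymes, lies on chromosome 10 from 78042287 to 78063622, on the plus strand. Its values were 81.8, 93.7 and 109 CPM in water zygotes and 75.4, 95.9 and 148 CPM in water 2C samples. Its log2 fold change was 0.15 in water embryos (interval -0.06 to 0.36) and 0.15 in Kdm5b embryos (interval -0.05 to 0.34). In neither case did the interval reach the fold threshold.

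With Dnmt3a lower and Dnmt3l not, the ratio of Dnmt3l to Dnmt3a in TPM had a median of 1.04 in water zygotes (range 0.821 to 1.33) and 1.69 in water 2C samples (range 1.49 to 2.28). In Kdm5b embryos it was 1.06 in zygotes (range 0.824 to 1.26) and 2.45 in 2C samples (range 1.39 to 4.12). The make-up of the catalytic DNA methyltransferase transcripts shifted with Dnmt1. Dnmt1 held a median of 87.3% of the summed TPM of Dnmt1, Dnmt3a and Dnmt3b in water zygotes (range 82.1% to 91.3%). It held 65.9% in water 2C samples (range 56.8% to 72.1%), where Dnmt3a held 25.3% and Dnmt3b 7.49%. In Kdm5b embryos the share of Dnmt1 was 84.3% in zygotes (range 80.3% to 89.1%) and 69.4% in 2C samples (range 62.8% to 74.4%). Dnmt1 thus remained the most abundant of these enzymes in each of the 35 samples, with a smaller share in every 2C sample than in any zygote.

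**Figure D2:**
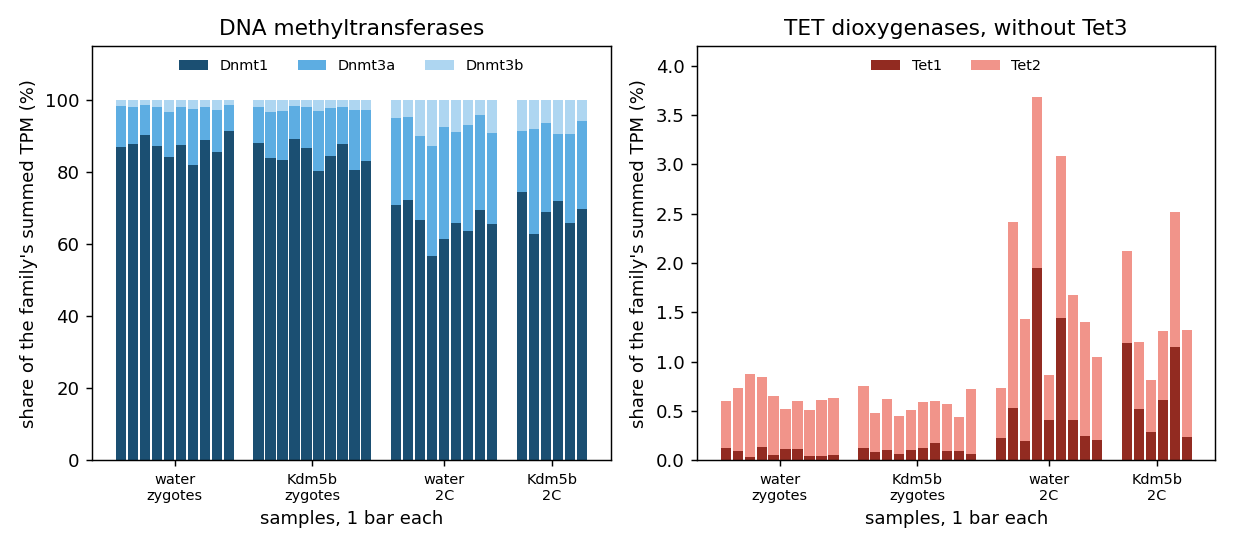
Make-up of the DNA methyltransferase transcripts (left) and the share of Tet1 and Tet2 among the TET transcripts (right, with Tet3 making up the rest), as percent of the family's summed TPM, with 1 bar per sample in the order of replicate numbers. Dnmt1 made up 80.3% to 91.3% in zygotes and 56.8% to 74.4% in 2C samples, and Tet1 and Tet2 together stayed a small part of the TET transcripts throughout.

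Tet3, the dioxygenase of the zygote, made up nearly all TET transcripts at both stages. It lies on chromosome 6 from 83362373 to 83441678, on the minus strand. The lowest, median and highest values were 2818, 3121 and 3361 CPM in water zygotes and 1364, 2410.1 and 2731 CPM in water 2C samples. The groups did not overlap, and the log2 fold change was -0.52 (SE 0.11, edgeR adjusted p = 0.000359). With Kdm5b the values were 3036, 3240.5 and 3639.8 CPM in zygotes and 1596, 1994 and 3205 CPM in 2C samples, where 4 of 6 samples lay below the lowest zygote. This amounted to a log2 fold change of -0.51 (SE 0.11, edgeR adjusted p = 0.000454). The share of Tet3 in the summed TPM of the 3 TET genes was at least 99.1% in every zygote and at least 96.3% in every 2C sample.

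Tet1, by contrast, was the only one of the 10 genes to rise past the test. It lies on chromosome 10, and the counted gene model runs from 62804570 to 62880014 on the minus strand. It was counted by 20 to 97 fragments per water zygote and by 64 to 367 per water 2C sample. The lowest, median and highest values were 1.21, 3.07 and 5.38 CPM in zygotes against 5.89, 10.0 and 35.7 CPM in 2C samples, which all lay above the highest zygote. On the log2 scale the fold change was 2.15 (SE 0.38, edgeR adjusted p = 2.99e-05). In Kdm5b embryos the values were 2.65, 4.12 and 6.98 CPM in zygotes and 5.64, 18.8 and 30.1 CPM in 2C samples, of which 5 of 6 lay above the highest zygote. Here the log2 fold change was 2.09 (SE 0.27, edgeR adjusted p = 4.88e-07).

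For Tet1 the samples of several embryos lay in the lower part of the 2C range. Their embryos had each lost a cell after injection, so pooling and that loss cannot be told apart. The 3 water 2C samples made of blastomeres from several embryos had 5.89 to 10.0 CPM, while the 6 single intact embryos had 6.87 to 35.7 CPM. The 1 Kdm5b 2C sample of this kind had 5.64 CPM, while the 5 single intact embryos had 11.4 to 30.1 CPM. With single intact embryos only, the log2 fold change from zygotes to 2C samples was 2.46 (SE 0.39) for water and 2.27 (SE 0.24) for Kdm5b. Even so Tet1 remained low, at a median of 2.05 TPM in water 2C samples and 3.80 TPM in Kdm5b 2C samples. Its share of the TET transcripts was at most 1.95% in any sample.

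Tet2, the remaining dioxygenase, lies on chromosome 3 from 133463677 to 133544390, on the minus strand. Its lowest, median and highest values were 11.1, 14.9 and 20.1 CPM in water zygotes and 10.7, 19.5 and 39.2 CPM in water 2C samples, with 4 of 9 above the highest zygote and 1 below the lowest. Its log2 fold change of 0.47 (SE 0.20) missed the threshold at an adjusted p of 0.0539 from edgeR. The adjusted p ranged from 0.0195 to 0.171 over the 27 alternatives and was under 0.05 in 7 of them, with the estimate above 0 in each. In Kdm5b embryos the log2 fold change was 0.34 (interval -0.01 to 0.69, adjusted p = 0.104 from edgeR).

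The RefSeq windows of Tet1 and Tet3 are shown because these relatives differed in direction between the stages, with CpGs in capitals as above.
Tet1 (chr10:62887275-62887574, minus strand): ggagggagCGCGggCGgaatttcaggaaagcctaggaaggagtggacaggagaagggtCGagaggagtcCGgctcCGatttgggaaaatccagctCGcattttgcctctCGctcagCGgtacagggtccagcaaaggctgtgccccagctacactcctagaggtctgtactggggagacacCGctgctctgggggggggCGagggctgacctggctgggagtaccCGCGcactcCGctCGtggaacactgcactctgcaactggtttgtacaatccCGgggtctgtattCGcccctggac
Tet3 (chr6:83441629-83441928, minus strand): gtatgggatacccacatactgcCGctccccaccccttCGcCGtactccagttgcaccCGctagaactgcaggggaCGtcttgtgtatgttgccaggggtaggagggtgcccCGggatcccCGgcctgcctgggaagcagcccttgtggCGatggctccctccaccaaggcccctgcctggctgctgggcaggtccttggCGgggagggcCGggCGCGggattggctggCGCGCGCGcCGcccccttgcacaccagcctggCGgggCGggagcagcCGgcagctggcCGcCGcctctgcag
The Tet1 window holds 17 CpGs and the Tet3 window 22, and 68.6% and 76.9% of all windows had fewer. That of Tet2 holds 57, more than 99.8% of all windows. GGGCGG occurred once in the Tet1 window and 2 times in that of Tet3, and CCAAT 0 times and once. The Tet1 window lies around a start 7310 bases before the beginning of the counted gene model, so fragments lying within the first exon of such transcripts were not part of the Tet1 count. Another annotation of the same build, GENCODE M21, begins Tet3 17406 bases further upstream than the counted model, and Tet1 28982 bases. Fragments on such exons were not counted for either gene. Over the 18 windows of the 9 genes that had one, the number of CpGs ran from 2 to 57 with a median of 14.5, against a median of 7 over all windows.

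The protectors remained the most abundant of the 10 transcripts at both stages. Dppa3 lies on chromosome 6 from 122626424 to 122630271, on the plus strand. Its lowest, median and highest values were 1093, 1246 and 1431 CPM in water zygotes and 889.8, 1201 and 1468 CPM in water 2C samples. The log2 fold change was -0.05 (interval -0.21 to 0.12), and the 2C range enclosed the zygote range. In Kdm5b embryos the 2C values were 749.5, 999 and 1333 CPM against 1042, 1190.3 and 1345 CPM in zygotes, a log2 fold change of -0.22 (interval -0.44 to -0.01) at an adjusted p of 0.0861 from edgeR. Its unadjusted p from edgeR was 0.0543, although the interval leaves out 0. The adjusted p was under 0.05 in 5 of 24 alternatives, with a range of 0.0116 to 0.225. RefSeq lists a pseudogene, Dppa3-ps, on the X chromosome. It has no row in the table, and whether fragments were lost from the Dppa3 count to it was not tested.

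As Uhrf1 fell and Dppa3 did not pass the test, the ratio of Dppa3 to Uhrf1 in TPM had a median of 5.38 in water zygotes (range 4.44 to 6.04) and 7.73 in water 2C samples (range 5.95 to 15.8). In Kdm5b embryos it was 4.94 in zygotes (range 3.80 to 5.63) and 8.44 in 2C samples (range 6.67 to 9.17). Zfp57, the protector of imprints, lies on chromosome 17 from 37001163 to 37010729, on the plus strand. Its values were 3897, 4205 and 4544 CPM in water zygotes and 1345, 3143 and 4049.9 CPM in water 2C samples, 8 of 9 of which lay below the lowest zygote. The log2 fold change was -0.50 (SE 0.13, edgeR adjusted p = 0.00263). In Kdm5b embryos it was -0.20 (interval -0.39 to -0.01, adjusted p = 0.0746 from edgeR), with 2C values of 2601.5, 3768 and 4962 CPM against 3897, 4280.4 and 4797 CPM in zygotes. The adjusted p was under 0.05 in 2 of 24 alternatives, with a range of 0.00374 to 0.227. The fall passed the test in water embryos and missed it in Kdm5b embryos, but the difference of 0.31 between these changes did not pass its own test (adjusted p = 0.617 from edgeR's interaction term).

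**Figure D3:**
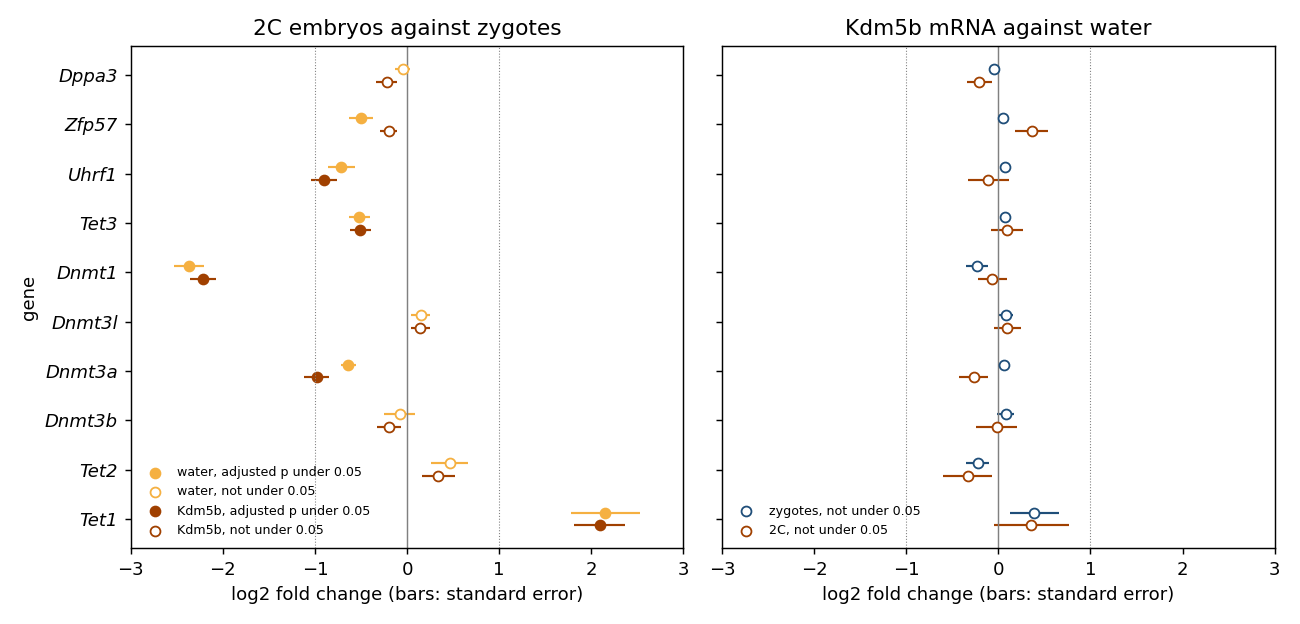
Log2 fold change of each of the 10 genes between 2C samples and zygotes (left) and between Kdm5b and water injection (right), with bars of 1 standard error, filled points where the adjusted p was under 0.05 and dotted lines at the fold threshold. Dnmt1, at -2.37 and -2.21, and Tet1, at 2.15 and 2.09, lie outside the dotted lines on the left, and no point on the right is filled.

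In 4 of the 10 genes the water 2C samples did not overlap the water zygotes (Dnmt1, Dnmt3a, Tet1 and Tet3), against 17.6% of all genes tested. In Kdm5b embryos this held for 3 (Dnmt1, Dnmt3a and Uhrf1), against 28.6%. The test of whether the change between stages differed with the injection gave 0 of 10 genes past an adjusted p of 0.05 in edgeR, against 0.109% of 13778 genes. DESeq2 also gave 0. In both tools 1 of the 10, Dnmt3a, had an unadjusted p under 0.05, with a difference of -0.33 (SE 0.16, edgeR adjusted p = 0.537). Of the 13778 genes, 1254 had such an unadjusted p in edgeR and 1413 in DESeq2. The adjusted p of Dnmt3a was 0.353 to 0.535 over the alternatives.

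The next comparison asked whether injection of Kdm5b-yfp mRNA, against water, changed these transcripts within a stage. It shares its samples with the comparisons of stages. H3K4 methylation was not measured in the sequenced embryos. In zygotes 0 of the 10 genes passed an adjusted p of 0.05 in edgeR, against 0.134% of 11933 genes. None was without overlap between the groups, against 0.0419%, and 0 had an unadjusted p under 0.05 in edgeR or in DESeq2. Of the 11933 genes, 1234 had such an unadjusted p in edgeR and 1307 in DESeq2. Few genes of any kind passed the adjusted p, so that count over the 10 genes adds little. The intervals say more, though they rest on a normal quantile and are narrower than edgeR's own test would give. For Tet3, with 3128 ± 170.0 CPM in water zygotes and 3264 ± 170.2 CPM in Kdm5b zygotes (SD, n = 10 each), the log2 fold change was 0.07 with a 95% interval of -0.01 to 0.15. For Zfp57 it was 0.05 (interval -0.03 to 0.13), for Dppa3 -0.04 (interval -0.15 to 0.06) and for Uhrf1 0.07 (interval -0.03 to 0.17). Those for Dnmt3a (0.06), Dnmt3b (0.08) and Dnmt3l (0.08) had upper bounds of 0.17, 0.26 and 0.22.

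The estimates farthest from 0 in zygotes were those of Tet1, Dnmt1 and Tet2. Dnmt1 was 1814 ± 453 CPM in water zygotes and 1530.5 ± 370.5 CPM in Kdm5b zygotes (SD, n = 10 each). Of the Kdm5b zygotes, 4 lay below the lowest water zygote and 0 above the highest. The log2 fold change of -0.23 (interval -0.47 to 0.01) had an adjusted p of 0.519 from edgeR, and 0.357 to 1.00 over the alternatives. With no filter on low counts its unadjusted p from edgeR was 0.0411, under 0.05 as for 2674 of 20409 genes. With the replicate block it was 0.0420 from edgeR, under 0.05 as for 1254 of 11933 genes. Tet1 had a log2 fold change of 0.39 (interval -0.13 to 0.91) and Tet2 of -0.22 (interval -0.47 to 0.02). In zygotes each library index block, a run of 8 consecutive index numbers, held as many water as Kdm5b samples. With this block as a covariate the estimate of Dnmt1 was -0.23 again.

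In 2C samples 0 of the 10 genes passed an adjusted p of 0.05 between Kdm5b and water in edgeR, against 0.0245% of 12244 genes. None was without overlap, against 0.237%, and 0 had an unadjusted p under 0.05 in edgeR or in DESeq2. Of the 12244 genes, 1152 had such an unadjusted p in edgeR and 1277 in DESeq2. Zfp57 had the smallest p, with 2916 ± 877 CPM in water samples (SD, n = 9) and 3724 ± 799 CPM in Kdm5b samples (SD, n = 6). Its log2 fold change was 0.36 (SE 0.18, interval 0.01 to 0.71, edgeR p = 0.0564 and adjusted p = 0.552). In some alternatives its unadjusted p from edgeR was under 0.05, as for 2531 of 19501 genes with no filter on low counts. So it was with the replicate block (1375 of 12244 genes) and with all 35 samples in one fit (2451 of 13778). The estimate was 0.36 for Tet1 (interval -0.44 to 1.16), -0.33 for Tet2 (interval -0.86 to 0.19) and -0.27 for Dnmt3a (interval -0.58 to 0.04). The intervals in 2C samples were wider than in zygotes for each of the 10 genes.

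The library index blocks were spread unevenly between the injections in 2C samples. They were inferred from the numbers in the sample labels, which do not describe them as batches. Of the water 2C samples 3 fell in block 11 and 6 in block 12, while of the Kdm5b 2C samples 5 fell in block 11 and 1 in block 12. Among water 2C samples Dnmt1 was 416, 455 and 492 CPM in block 11 and 204 to 354 CPM in block 12, without overlap. The other 9 genes overlapped between the blocks, so that 1 of 10 did not, against 7.83% of 12244 genes. Zfp57 was 3296, 3720.5 and 4049.9 CPM in the 3 samples of block 11 and 1345 to 3500.0 CPM in block 12. Within block 12 the samples of several embryos, at 2917 to 3500.0 CPM, were above the 3 single intact embryos, at 1345 to 2180 CPM.

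With the index block as a covariate, the estimate of Zfp57 between Kdm5b and water was 0.16 (SE 0.18), and within block 11 it was 0.05 (SE 0.17). That of Dnmt1 went the other way, from -0.07 without the block to -0.32 with it (SE 0.13, edgeR adjusted p = 0.202) and -0.41 within block 11 (SE 0.14, edgeR adjusted p = 0.188). The adjusted p of Dnmt1 was 0.188 to 0.998 over all alternatives, so it did not pass in any. Tet1 went from 0.36 to 0.71 with the covariate (SE 0.44) and 0.60 within block 11 (SE 0.50). Dnmt3a went from -0.27 to -0.40 (SE 0.17, edgeR adjusted p = 0.241) and -0.42 (SE 0.23). Tet2 went from -0.33 to -0.38 (SE 0.29) and -0.83 (SE 0.38, edgeR adjusted p = 0.359). Uhrf1 went from -0.11 to -0.24 (SE 0.23) and -0.45 (SE 0.27), and Dppa3 from -0.21 to -0.22 (SE 0.15) and -0.39 (SE 0.19). Dnmt3b went from -0.02 to -0.10 (SE 0.26) and -0.18 (SE 0.33). In these fits 0 of the 10 genes passed the adjusted p in edgeR. Of all genes 253 of 12244 passed with the covariate and 111 of 12426 within block 11. In each fit 2 of the 10 had an unadjusted p under 0.05 in edgeR. With the covariate these were Dnmt1 and Dnmt3a, against 2021 of 12244 genes. Within block 11 they were Dnmt1 and Tet2, against 1631 of 12426. Tet3 and Dnmt3l changed sign, from 0.09 to -0.07 and from 0.10 to -0.01 with the covariate. Their adjusted p was at least 0.749 in all alternatives. Block 12 held 1 Kdm5b sample and gave no comparison of its own. The part of the index block in these values was not tested.

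**Figure D4:**
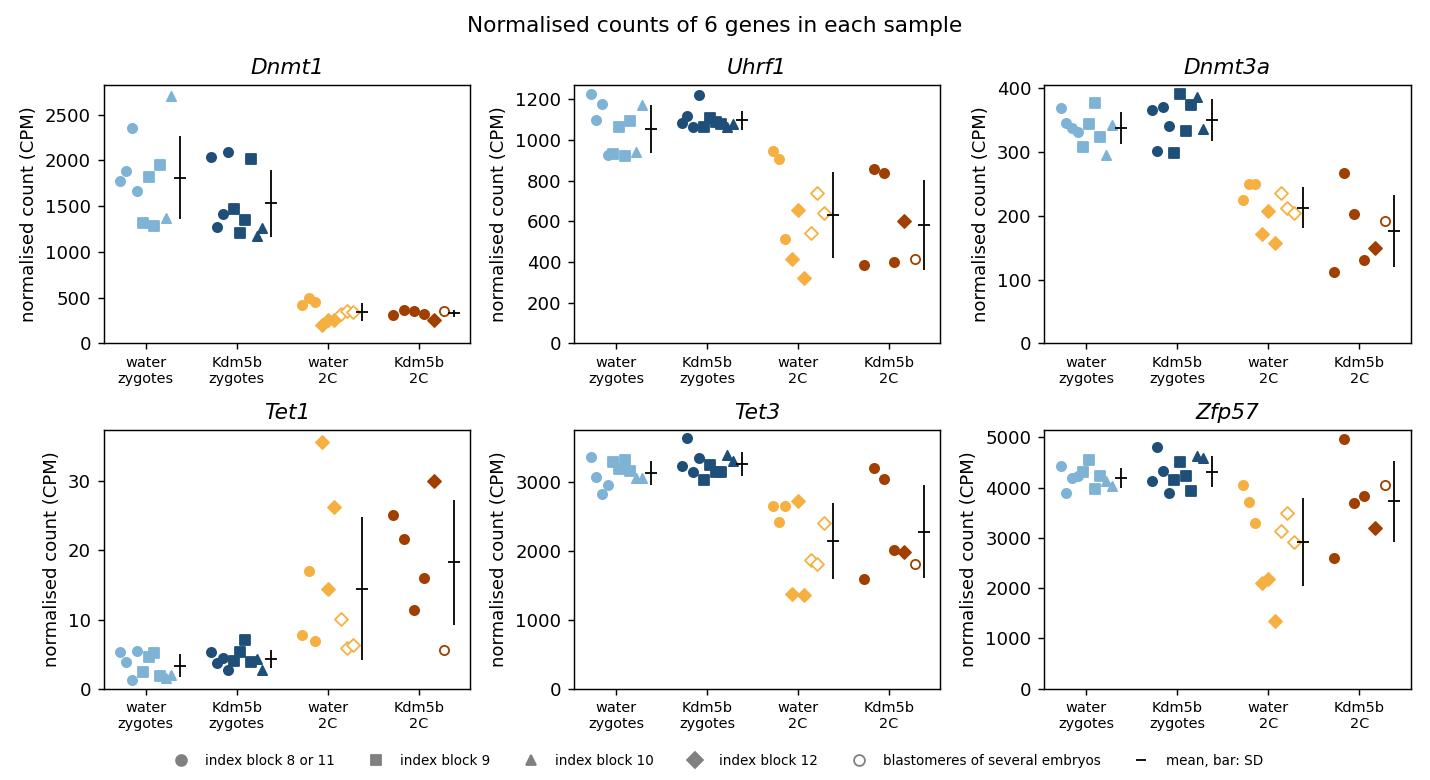
Normalised counts (CPM) of Dnmt1, Uhrf1, Dnmt3a, Tet1, Tet3 and Zfp57 in each sample, with marker shapes for the library index block, open markers for samples of blastomeres from several embryos, and a mean with SD beside each group. In the water 2C group the 3 Dnmt1 values of block 11, from 416 to 492 CPM, lie above the 6 of block 12, and the open markers of Tet1 lie at or below 10.0 CPM.

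The spread between samples of one group differed widely among the 10 genes. In water zygotes the coefficient of variation of CPM was 4.78% for Zfp57, 5.43% for Tet3, 9.69% for Dppa3 and 11.2% for Uhrf1, but 25.0% for Dnmt1. Counting alone would give 0.593% for Dnmt1. Of 132 genes with a mean within 2-fold of that of Dnmt1, 2 had a larger coefficient, and their median was 7.78%. In Kdm5b zygotes Dnmt1 had 24.2%, with 2 of 180 such genes above it. The highest water zygote held 2701 CPM and the lowest 1284 CPM. The pair of water zygotes in index block 10 had 1377 and 2701 CPM, so a wide gap was also met within 1 block. Tet1 had the largest coefficient, 51.2%, of which counting alone would give 13.7%.

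The spread was larger in 2C samples for all 10 genes in water embryos and for 9 of 10 in Kdm5b embryos, the exception being Dnmt1 (24.2% in zygotes, 12.7% in 2C samples). The same held for 93.4% and 84.7% of the 6599 and 6516 genes with a mean of at least 10 CPM at both stages, so this was shared by most genes. Unlike the zygotes, the 2C groups mixed single intact embryos with blastomeres of several embryos, collected 5.5 to 8 h after division. The part of this mixture in the spread was not tested. In water 2C samples Tet3 reached 25.6%, Zfp57 30.1%, Uhrf1 33.3% and Tet1 71.6%. Medians of genes with like means were 14.6%, 14.9%, 15.5% and 38.2%. In Kdm5b 2C samples Uhrf1 (37.7%), Dnmt3a (32.2%), Tet3 (29.7%) and Dppa3 (26.0%) stood above 97.5%, 94.2%, 92.04% and 92.3% of genes with like means.

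**Figure D5:**
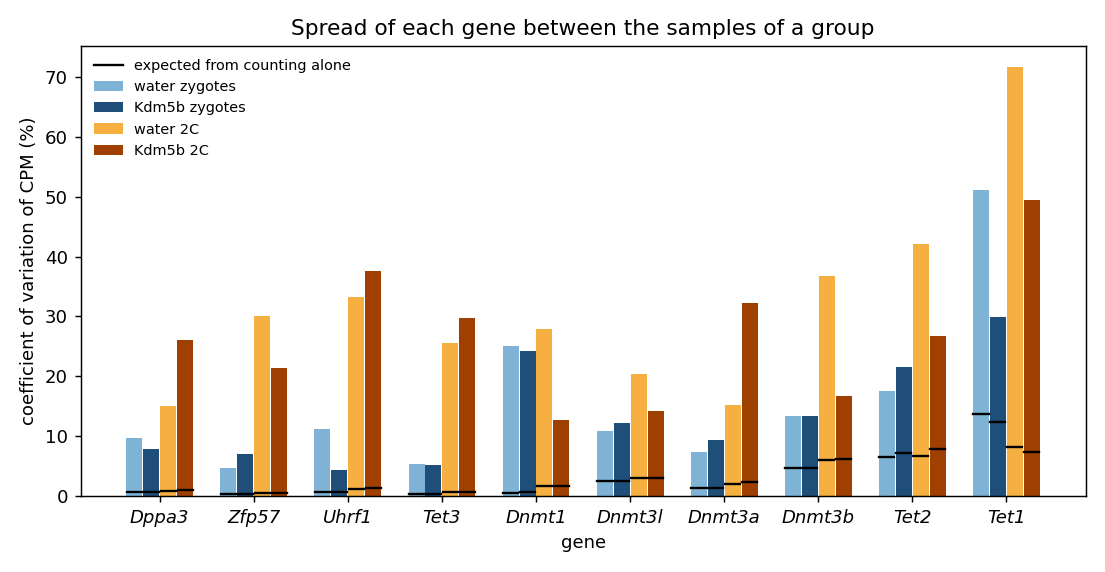
Coefficient of variation of CPM (percent) between the samples of each group, with 1 bar per gene and group and a black line for the value that counting alone would give. Dnmt1 stands out among the abundant genes in zygotes, at 25.0% and 24.2%, and the bars of 2C samples are higher than those of zygotes for all genes in water embryos.

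Beside these genes, 55 others of the pathway were listed by role, of which 47 could be tested between water 2C samples and water zygotes. At an adjusted p of 0.05, 12 were higher and 18 lower in 2C samples, against 26.8% and 25.4% of all genes. Their median log2 fold change was -0.19. With the fold threshold 4 were higher and 5 lower, against 9.20% and 13.0%. In Kdm5b embryos 48 were tested, and 14 were higher and 22 lower, against 29.3% and 29.5% of all genes. With the fold threshold these were 4 and 11, against 10.5% and 16.0%.

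Of the base excision repair genes, which remove oxidised or deaminated bases, 13 of 17 were tested and 1 was higher and 8 lower at each injection. Of all genes, 26.8% were higher and 25.4% lower in water embryos, and 29.3% and 29.5% in Kdm5b embryos. The median log2 fold change of the 13 genes was -0.50 in water and -0.63 in Kdm5b embryos, against 0.02 and 0.01 over all genes. Apex1, the abasic site endonuclease, fell from 20.4 ± 3.61 CPM (SD, n = 10) to 7.65 ± 2.86 CPM (SD, n = 9) in water embryos, a log2 fold change of -1.39 (adjusted p = 3.45e-06 from edgeR). In Kdm5b embryos its log2 fold change was -1.82. The glycosylase Neil3 fell by 1.00 and 1.28 on the log2 scale in water and Kdm5b embryos. Smug1, a uracil glycosylase, fell by 1.11 in water embryos, and its log2 fold change in Kdm5b embryos was -1.01. The 1 higher gene was Gadd45b, a stress protein linked to demethylation, at 2.37 and 1.97. It had 2.00 ± 1.18 CPM in water zygotes (SD, n = 10) and 10.2 ± 5.54 CPM in water 2C samples (SD, n = 9).

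Among the relatives and cofactors of the writers, Uhrf2, a relative of Uhrf1, rose by 2.19 on the log2 scale in water embryos (adjusted p = 0.000643 from edgeR) and by 2.25 in Kdm5b embryos, from 1.40 ± 0.923 CPM in water zygotes (SD, n = 10) to 6.28 ± 3.53 CPM in water 2C samples (SD, n = 9). Uhrf1 fell between the same groups. Among the readers of methylated DNA, Mbd2 rose by 1.02 in water embryos and by 0.91 in Kdm5b embryos. Zbtb38 rose by 1.18 in Kdm5b embryos (adjusted p = 0.0163 from edgeR). Its estimate in water embryos was 0.96 (adjusted p = 0.185 from edgeR). Idh1, which makes the TET cosubstrate 2-oxoglutarate, fell by 1.15 in Kdm5b embryos. Its log2 fold change in water embryos was -0.69 (adjusted p = 0.000709 from edgeR). Of the 5 genes listed for imprint protection, 2 were higher and 2 lower in water embryos, against the same 26.8% and 25.4% of all genes. In Kdm5b embryos 2 were higher and 3 lower, against 29.3% and 29.5%.

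Between Kdm5b and water, 1 of 47 pathway genes passed the adjusted p in zygotes, against 0.134% of all genes, and 0 of 49 in 2C samples, against 0.0245%. The former was Mbd3, a NuRD subunit, at a log2 fold change of -0.43 (SE 0.09, edgeR adjusted p = 0.0306). In the interaction of injection and stage 1 of 49 passed, against 0.109% of all genes. It was Pcna, the replication clamp that binds DNMT1, at -0.76 (SE 0.16, edgeR adjusted p = 0.0262). These were named after their values were seen.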

How the data were processed

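Per the labels and the study's methods, the authors trimmed reads with fastp 0.21.0, aligned them to GRCm38 with STAR 2.7.3a and counted fragments on RefSeq genes, by strand, with featureCounts 1.5.1. The authors deposited raw counts per gene, in whole numbers. By default featureCounts leaves out fragments with several alignments, and RefSeq lists pseudogenes of Dnmt3a, Dnmt3b, Dnmt3l and Dppa3, whose effect on these counts was not tested. The deposited repeat estimates were not used here, and 0 columns belonged to no sample.

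The Kdm5b row was removed first. For each comparison only its groups entered the fit, and for the interaction all 35 samples, with edgeR 4.0.16 in R 4.3.3 (TMM, filterByExpr with a minimum count of 10, quasi-likelihood test, Benjamini-Hochberg adjustment over all genes tested). The thresholds were those of the study, 0.05 for the adjusted p and 1 for the size of the log2 fold change. Between its control stages the study reported far fewer genes at these thresholds than the 2656 called here, or the 2766 from DESeq2. The reason was not tested. CPM used TMM factors over all samples, and TPM the counted exon lengths. Intervals are the estimate with the normal 95% quantile times the standard error, and all intervals cover these samples only. The normal quantile makes them narrower than edgeR's test, so an interval can leave out 0 where the unadjusted p is above 0.05. The labels number biological replicates, but embryos of one group may share pooled mothers. Libraries of one group differed by more than counting noise, with a chi-square per degree of freedom of at least 10.6 in every pair. The 10 genes and the lists were chosen with earlier results of these data known. Named pathway genes are up to 3 higher and 3 lower per comparison with the smallest p past both thresholds, and the 2 genes closest in profile to each of the 10 are given. Dcaf1 was matched under its older symbol, Vprbp. The fits were tested on simulated data. Alternatives were DESeq2 1.42.0 and its size factors, other filters, the Kdm5b row kept, no fold threshold, the replicate block, all samples together, single intact embryos, the index block, and each sample left out. Python 3.11.15, pandas 2.3.3, numpy 2.4.6, scipy 1.17.1 and matplotlib 3.10.9 were used.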

Additional observations from a re-analysis of the deposited data

Results flagged for a closer look

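Of 40 sets of values, 10 genes in 4 groups, 3 held a sample whose gap to its nearest neighbour was large against the range of its group by Dixon's criterion. Chance flags about 1 in 20 such sets. Dnmt3l in replicate 8 of the Kdm5b zygotes was 126.7 CPM, against 106 CPM in the next sample. Dnmt3l in replicate 3 of the water 2C samples, a single intact embryo of index block 11, was 148 CPM, against 112 CPM in the next. Uhrf1 in replicate 4 of the Kdm5b zygotes was 1223 CPM, against 1116 CPM in the next, in a group whose other 9 samples lay between 1061.5 and 1116 CPM.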

How the results depend on the processing

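Over the 4 comparisons and the interaction, 1081 of the values of single genes kept their direction and their side of an adjusted p of 0.05, 14 gained a call and 15 changed sign, while 0 of the called values changed sign. The sign changes were Dppa3 between water stages with single intact embryos only (0.0047), Dnmt3l (-0.0060 and -0.19) and Tet3 (-0.067 and -0.14) between injections in 2C samples with the index block as a covariate and within block 11, and Dnmt3l in the interaction with single intact embryos only (-0.022). With each sample left out, Dnmt3b ranged from -0.23 to 0.00015 between water stages, and in 2C samples Dnmt3b ranged from -0.0997 to 0.12, Tet3 from -0.029 to 0.17 and Dnmt1 from -0.14 to 0.013 between injections.

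Without the fold threshold the genes called were 6250 and 7279 between stages in water and Kdm5b embryos (main 2656 and 3278), with 6 and 5 of the 10 genes among them, and 16, 3 and 15 for injection in zygotes, in 2C samples and the interaction (main 1, 1 and 2). With no filter on low counts they were 4196 between water stages, and 2 and 3 for injection in zygotes and 2C samples. DESeq2's Wald test gave 0, 7 and 20 for zygotes, 2C samples and the interaction. The Kdm5b row kept gave 2 in zygotes and 2 in 2C samples, and a mean of at least 50 counts 2 in 2C samples. All 35 samples in one fit gave 0 in zygotes and 70 in 2C samples. Single intact embryos gave 0 in 2C samples and 12 in the interaction, the index block as a covariate 53 and block 11 alone 70 in 2C samples. With each sample left out the injection counts were 0 to 2 at both stages, and the number of the 10 genes called between Kdm5b stages was 2 to 4. It was 4 without Kdm5b 2C replicate 2 or 3, where Dnmt3a and Uhrf1 passed the fold threshold, at -1.14 and -1.05 without replicate 2. Of all genes 3600 of 12652 were called without replicate 2 and 3511 of 12633 without replicate 3. With the replicate block, 3 genes were called between injections in 2C samples, and 3 of the 10 genes, with Dnmt3a at -1.01, between Kdm5b stages. The latter fit called 3051 of 12390 genes. Replicate numbers did not pair the samples, as the correlation of the deviations of same-numbered samples exceeded 0.1 in 1 of 31 pairs and its median was between -0.0058 and 0.043.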

Other observations

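For each of the 10 genes the closest profiles were sought among 13777 other genes, as the root mean square difference of log2(TPM + 0.1) over all 35 samples after each gene was centred on its mean. These are descriptions of likeness across samples that share stage and library day. Tet3 was closest to Diaph1 (0.16) and Sall4 (0.16), against a median of 0.78 over all genes, and Uhrf1 to Stau1 (0.17) and Maea (0.19), against 0.88. Dnmt3a was closest to Ehf (0.17) and Trnt1 (0.17), and Zfp57 to Dclk2 (0.17) and Eif4enif1 (0.21). Dnmt3l was closest to Hmga1 (0.18) and Rph3al (0.19), and Dppa3 to Rpap2 (0.19) and Nfe2l1 (0.19). Dnmt1 had Psma7 (0.26) and Pdzk1 (0.28) as its nearest, against a median of 1.40. Dnmt3b was closest to Cbx1 (0.25) and Fyn (0.26), and Tet2 to Senp3 (0.25) and Gmeb1 (0.28). Tet1 had no close neighbour, since the nearest, Mcl1 and Dgke, were at 0.67 and 0.68, against a median of 1.44. None of the 10 genes was among the 2 closest of another.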
